A study of Mus musculus with 48 samples.

Results

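The genes described here are progranulin (Grn), cystatin C (Cst3) and every gene of the nCounter Glial panel whose symbol begins with Cts, the cathepsins. They are 8 of the 757 genes of that panel: Grn, Cst3, Ctsb, Ctsd, Ctsf, Ctsl, Ctss and Ctsw. They were chosen by symbol, with earlier results of these data known. The nCounter assay tallies transcripts directly by barcoded probes, with no amplification step, and its values are given here as log2 normalized counts. A difference of 1 on this scale is a doubling, and levels of different genes are not compared because each is read by its own probe.

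RNA came from the cortex of 24 mice aged 7.5 months, all carrying 5xFAD, human transgenes with familial Alzheimer disease mutations that drive early amyloid plaques. The groups were 6 females and 6 males that were also heterozygous for a Plcg2 knockout (5xFAD Plcg2 KO+/-, called Plcg2+/- here) and 6 females and 6 males with 5xFAD alone. Plcg2 encodes phospholipase C gamma 2, a signalling enzyme of microglia and other immune cells, and the study asked what its reduction does in this model. Plcg2 itself was not among the genes analysed here, so the genotype labels could not be checked. The same animals were also run on the nCounter Neuropathology panel (760 genes), on which Grn was measured a second time.

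Cathepsins are proteases that digest proteins, mainly in the acid interior of lysosomes. Cystatin C is a secreted inhibitor that blocks cathepsins of the cysteine class, and progranulin is a secreted glycoprotein that is taken up into lysosomes, where cathepsins cut it into granulins. In brain, microglia make progranulin and many cathepsins, and loss of progranulin leads to lysosomal storage and to frontotemporal dementia in people.

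Promoter sequences are shown for 3 of the genes, because lysosomal genes are known as a group to carry the E-box CACGTG that the lysosome regulator TFEB recognises. The sequences are from RefSeq on GRCm38.p6 and run from 250 bases before to 50 after the gene's start, on the strand of the gene. The table held 6 of the 8 genes, and Ctsb and Ctsw had no entry. Capitals mark CACGTG, which is its own reverse complement, so both strands are covered. Grn lies at chr11:102430257-102430556 (plus strand), Cst3 at chr2:148875463-148875762 (minus strand) and Ctsd at chr7:142387778-142388077 (minus strand).
Grn: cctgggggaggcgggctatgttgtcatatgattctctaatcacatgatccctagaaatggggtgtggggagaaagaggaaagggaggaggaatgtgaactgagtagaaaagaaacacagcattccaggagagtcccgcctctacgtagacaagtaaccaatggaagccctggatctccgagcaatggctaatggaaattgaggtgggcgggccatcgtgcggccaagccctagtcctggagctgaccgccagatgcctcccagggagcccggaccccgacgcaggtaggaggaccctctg
Cst3: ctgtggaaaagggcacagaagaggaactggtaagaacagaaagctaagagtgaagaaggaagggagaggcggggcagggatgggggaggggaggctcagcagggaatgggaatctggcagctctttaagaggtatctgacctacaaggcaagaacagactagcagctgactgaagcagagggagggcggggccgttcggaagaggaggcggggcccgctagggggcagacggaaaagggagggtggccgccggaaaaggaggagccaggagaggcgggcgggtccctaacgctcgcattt
Ctsd: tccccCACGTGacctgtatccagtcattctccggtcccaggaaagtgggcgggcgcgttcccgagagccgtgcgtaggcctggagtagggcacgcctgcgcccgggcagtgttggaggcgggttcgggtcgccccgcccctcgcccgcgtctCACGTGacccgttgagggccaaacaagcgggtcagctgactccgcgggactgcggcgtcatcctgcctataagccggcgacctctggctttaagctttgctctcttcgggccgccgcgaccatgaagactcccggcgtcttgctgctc

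Ctsd held CACGTG at 2 places, 245 and 98 bases before its start, and the copy nearer the start lies within the longer TCACGTGA. Ctsf held it once, 79 bases before its start. Ctsl held it once, 236 bases before the start used for its window. That window, chr13:64370471-64370770 (minus strand), lies inside the annotated gene (64361890 to 64370772). The copy in Ctsl is therefore not upstream of the annotated gene. The promoters of Grn, Cst3 and Ctss did not hold these letters in this window. Of all 32851 promoters given by RefSeq 7.15% held CACGTG and 0.974% held TCACGTGA, which contains it. This is a description of sequence and shows nothing about binding.

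Total counts recovered from the Glial values ranged from 1773331 to 1897264 in Plcg2+/- females and from 953461 to 1239109 in 5xFAD females, so in this sex the Plcg2+/- libraries were all the deeper ones. The male totals overlapped, from 1360757 to 1814975 in Plcg2+/- mice and from 1428825 to 1775622 in 5xFAD mice. Plcg2+/- animals carry numbers from 3 to 51 and 5xFAD animals from 1177 to 1270, so genotype cannot be told apart from cohort or assay run. Over both sexes 33.8% of all genes of the panel were higher and 26.7% lower in Plcg2+/- mice. Of 13 microglia markers 3 were higher and 4 lower, and none was near background. Their summed level ran from 13318 to 16328 normalized counts in Plcg2+/- females, against 12650 to 16902 in 5xFAD females. In males it ran from 11068 to 14070 in Plcg2+/- mice and from 10860 to 14231 in 5xFAD mice. In RNA of whole cortex, fewer cells of a type and less RNA per cell cannot be told apart. Plcg2+/- female 12 and Plcg2+/- male 3 stood apart from their groups in several genes, and values without them are given where they matter.

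Differences between genotypes are Plcg2+/- minus 5xFAD in log2 with their standard error (SE), from limma across all genes with Benjamini-Hochberg adjustment. A gene is said to rise or fall only at an adjusted p under 0.05. Over both sexes 3 of the 8 genes passed on the Glial panel: Grn rose, and Cst3 and Ctsb fell. On the Neuropathology panel Grn fell in the same mice. This share has to be read against the panel, on which 60.5% of all genes passed, 33.8% higher and 26.7% lower. The 8 genes had a median difference of -0.036, against 0.041 over all 757 genes. The other 5 cathepsins did not pass.

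**Figure D1:**
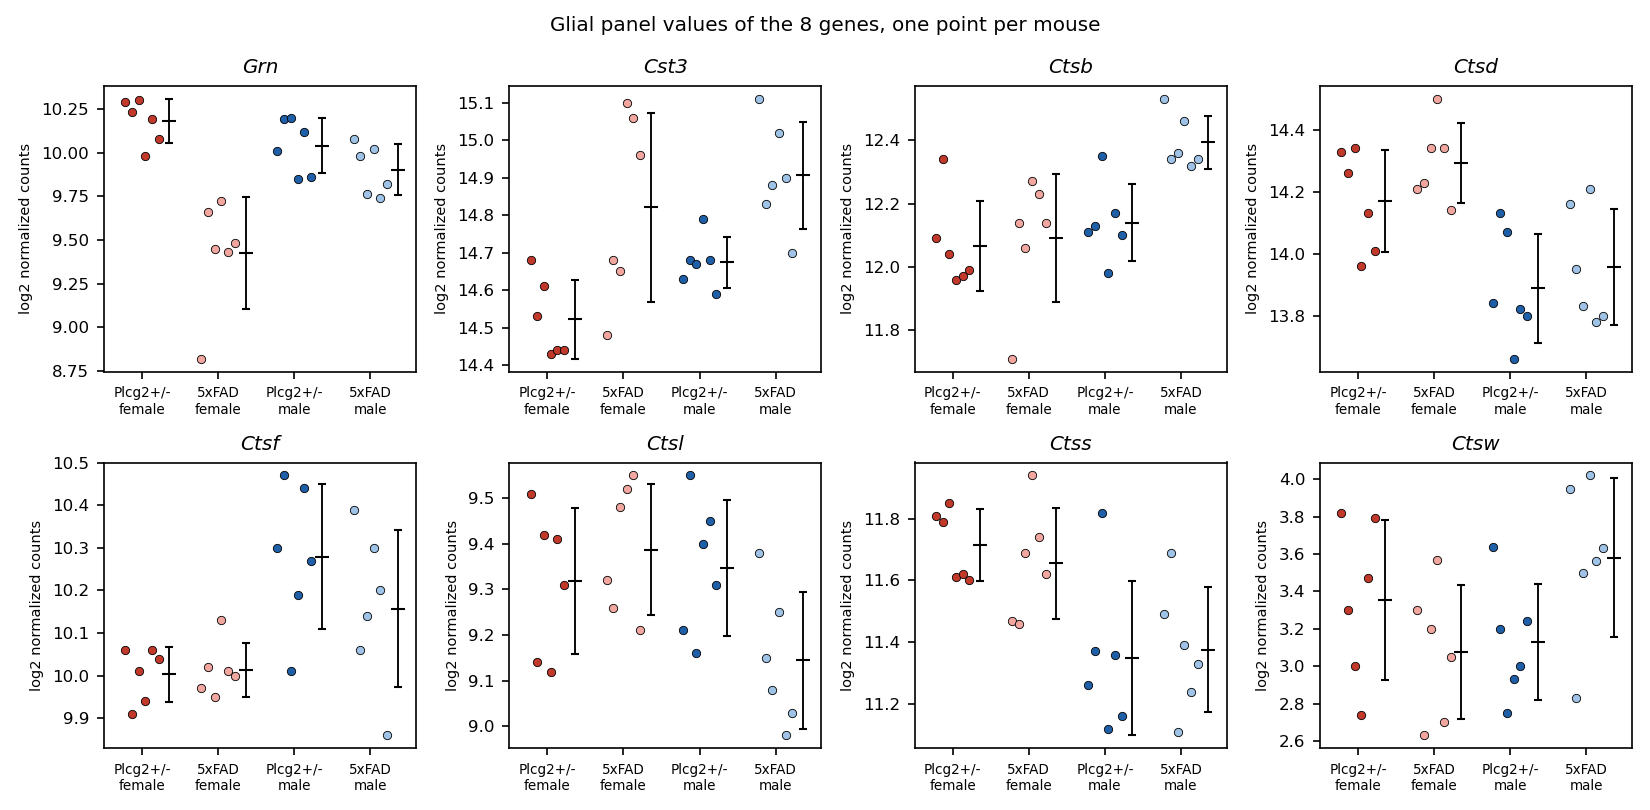
Log2 normalized counts on the Glial panel (y axis, its own range in each plot) of the 8 genes in the 4 groups (x axis), with 1 point for each of 24 mice and the mean ± SD of each group of 6 beside them. Grn of all 6 Plcg2+/- females lies above all 6 5xFAD females, Cst3 averages lower in Plcg2+/- mice of both sexes, and Ctsd and Ctss are higher in females than in males.

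Grn showed the most separated values of the 8 genes, and only in females. In Plcg2+/- females its Glial values had a lowest of 9.98, a median of 10.21 and a highest of 10.30, against 8.82, 9.46 and 9.72 in 5xFAD females. The female groups did not overlap, on a panel where 54.8% of all genes passed in females. How many of all genes separated in this way was not counted. The Plcg2+/- males had 9.85, 10.07 and 10.20 for the same measures, against 9.74, 9.90 and 10.08 in 5xFAD males. The male groups overlapped, with 3 of 6 Plcg2+/- males above every 5xFAD male. Behind these values lay 1362 to 1730 recovered counts per mouse in Plcg2+/- females and 321 to 709 in 5xFAD females, so counting error is small beside the difference.

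Grn rose by 0.75 ± 0.11 in females (1.69-fold, adjusted p = 1.08e-05, n = 6 per group) and differed by 0.14 ± 0.11 in males (adjusted p = 0.331, 95% confidence interval -0.096 to 0.37). The difference between the sexes itself passed, at 0.62 ± 0.16 (adjusted p = 0.00818). It was the 1 of the 8 genes to do so, on a panel where 21.9% of all genes passed this test. Over both sexes Grn rose by 0.45 ± 0.080 (adjusted p = 6.52e-05), with 10 of 12 Plcg2+/- mice above the 5xFAD mean of their sex. The group means were, from high to low, 10.18 in Plcg2+/- females, 10.04 in Plcg2+/- males, 9.90 in 5xFAD males and 9.43 in 5xFAD females. The SDs of the first 3 groups were 0.13, 0.16 and 0.15, so neighbours in this order among them were no further apart than about their spread. The 5xFAD females had an SD of 0.32 and lay below the rest. Their lowest mouse, 1180, had 8.82 and also the lowest total count of all 24 mice. Without it the female difference was 0.63 (adjusted p = 4.87e-06). Neuron markers moved with Grn in females: of 9 measured, 8 were higher and 0 lower, where 34.5% of all genes were higher. Their summed level was 66348 to 76135 normalized counts in Plcg2+/- females and 52455 to 63165 in 5xFAD females, without overlap. In males 4 were higher and 1 lower, where 17.2% of all genes were higher and 23.5% lower. The male sums were 78004 to 96544 in Plcg2+/- mice and 79358 to 84291 in 5xFAD mice. Neurons were not the only list to go this way in females. Of 16 T and natural killer cell genes, 15 of them dim, 10 were higher and 0 lower in females. Of the 13 microglia markers 4 were higher and 3 lower in females, where 20.3% of all genes were lower. The part of these cells, or of depth, in the rise of Grn was not tested.

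The Neuropathology panel read Grn in the same animals and gave the opposite direction. There the Plcg2+/- males had a lowest of 9.46, a median of 9.76 and a highest of 10.76, against 10.30, 10.50 and 10.69 in 5xFAD males. In 5 of 6 Plcg2+/- males Grn lay below every 5xFAD male, and the exception, male 3, lay above them all. In Plcg2+/- females the values were 9.39, 9.67 and 10.54, against 9.68, 9.84 and 10.16 in 5xFAD females, and the groups overlapped. The highest Plcg2+/- female was number 12.

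On the Neuropathology panel Grn fell by 0.38 ± 0.13 over both sexes (0.77-fold, adjusted p = 0.0141, 10 of 12 Plcg2+/- mice), on a background of 71.6% of its 760 genes passing, 35.5% higher and 36.1% lower. In males it fell by 0.62 ± 0.18 (adjusted p = 0.00689), where 56.7% of genes passed. In females it differed by -0.13 ± 0.18 (adjusted p = 0.556), where 54.2% passed. Between the sexes the difference was 0.49 ± 0.26 and did not pass (adjusted p = 0.173), while 19.1% of genes passed this test. Of those 130 were positive and 15 negative, and the median over all genes was 0.22. Without female 12 and male 3 the female difference was -0.29 and passed (adjusted p = 0.0146), and the difference between the sexes was 0.51 and passed (adjusted p = 0.00653). Without male 3 alone the difference between the sexes was 0.67 (adjusted p = 0.0132). Both mice had the highest Grn of their group here, so leaving them out could only lower the group means. These passes are therefore no support. Without both, 505 of 760 genes passed in females and 311 between the sexes, against 412 and 145 with all mice. With quantile normalization the fall over both sexes did not pass (-0.21, adjusted p = 0.0941). Total counts on this panel ran from 1220459 to 1603006 in Plcg2+/- females and from 528033 to 651615 in 5xFAD females, and so were again separate. In males they ran from 1119119 to 1587858 in Plcg2+/- mice and from 865095 to 1274953 in 5xFAD mice. The median log2 value of a mouse here was 9.14 in male 3 and 8.75 to 8.86 in the other Plcg2+/- males. In 5xFAD males it was 9.03 to 9.13. With median centring the median male genotype difference over all genes moved from -0.062 to 0.16.

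The disagreement between the panels was tested on the Glial minus Neuropathology value of each mouse, an analysis chosen after the values were seen. For Grn this value was 0.43 ± 0.38 in Plcg2+/- females and -0.46 ± 0.20 in 5xFAD females (SD, n = 6 each). It was 0.18 ± 0.43 in Plcg2+/- males and -0.58 ± 0.036 in 5xFAD males (SD, n = 6 each). All 12 5xFAD mice were therefore lower on the Glial panel, by 0.30 to 0.86. Among Plcg2+/- mice female 12 (-0.31) and male 3 (-0.56) had values like those of 5xFAD mice, male 48 had -0.023, and the other 9 were higher on the Glial panel.

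The genotype difference of this value was 0.82 ± 0.12 for Grn (limma adjusted p = 2.17e-05 over the 251 genes on both panels). In an exact permutation of genotype within sex it had a two-sided p of 1.17e-05. Grn was not alone in this, since 47.4% of the 251 shared genes passed the same test, with a median of 0.051. A larger positive value was seen in 11 of the other genes. With median centring the value for Grn was 0.73. Without female 12 and male 3 it was 0.97, but these mice had the lowest values of their groups. Leaving them out could therefore only raise it. The direction of Grn between the genotypes thus depends on the panel that reads it, and the cause was not tested.

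**Figure D2:**
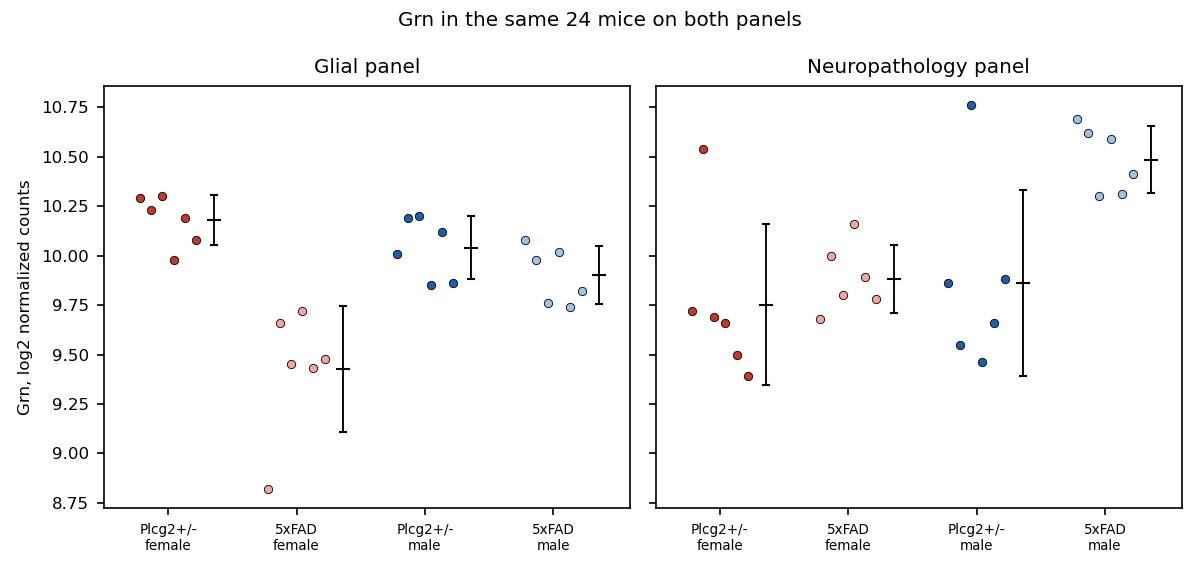
Log2 normalized counts of Grn (y axis) in the same 24 mice on the Glial panel (left) and the Neuropathology panel (right), by group (x axis), with the mean ± SD of each group of 6. On the Glial panel the 6 Plcg2+/- females lie above all 5xFAD females, while on the Neuropathology panel 5 of 6 Plcg2+/- males lie below all 5xFAD males, and female 12 and male 3 are the highest of their groups.

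Cst3, the inhibitor, was lower in Plcg2+/- mice of both sexes. Its lowest, median and highest values were 14.43, 14.49 and 14.68 in Plcg2+/- females, against 14.48, 14.82 and 15.10 in 5xFAD females. Plcg2+/- males had 14.59, 14.67 and 14.79, against 14.70, 14.89 and 15.11 in 5xFAD males. The groups overlapped in both sexes, although 5 of 6 Plcg2+/- males lay below every 5xFAD male. Cst3 fell by 0.27 ± 0.064 over both sexes (0.83-fold, adjusted p = 0.00112), and all 12 Plcg2+/- mice were below the 5xFAD mean of their sex.

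In females Cst3 fell by 0.30 ± 0.090 (adjusted p = 0.00749) and in males by 0.23 ± 0.090 (adjusted p = 0.0438). The difference between the sexes was -0.066 ± 0.13 and did not pass (adjusted p = 0.739). Spread was smaller in the Plcg2+/- groups, with SDs of 0.11 in Plcg2+/- females and 0.25 in 5xFAD females, and of 0.069 in Plcg2+/- males and 0.14 in 5xFAD males. The female call was lost with quantile normalization (-0.12, adjusted p = 0.165). The male call was lost with median centring (adjusted p = 0.0675), when female 12 and male 3 were both left out (adjusted p = 0.0524), and without any 1 of Plcg2+/- males 11, 13, 46 and 48 or 5xFAD males 1177, 1181, 1182, 1268 and 1269 (adjusted p up to 0.101). The call over both sexes was kept in every setting tried. Of 4 endothelial markers, 0 rose and 3 fell over both sexes, where 33.8% of all genes were higher and 26.7% lower. In females 1 rose and 1 fell, with a median of -0.080 (all genes: 34.5% higher, 20.3% lower). In males 0 rose and 4 fell, with a median of -0.57 (all genes: 17.2% higher, 23.5% lower). Their summed levels were 396 to 589 normalized counts in Plcg2+/- females and 436 to 674 in 5xFAD females, and 490 to 686 in Plcg2+/- males and 804 to 993 in 5xFAD males. Of 5 astrocyte markers 2 rose and 1 fell over both sexes, with a median of 0.12, against 33.8% higher and 26.7% lower over all genes. The part of these cells in the fall of Cst3 was not tested.

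Within a sex, 2 of the 8 genes passed in females, Grn higher and Cst3 lower, where 54.8% of all genes passed, 34.5% higher and 20.3% lower. Likewise 2 passed in males, Cst3 and Ctsb, both lower, where 40.7% passed, 17.2% higher and 23.5% lower.

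**Figure D3:**
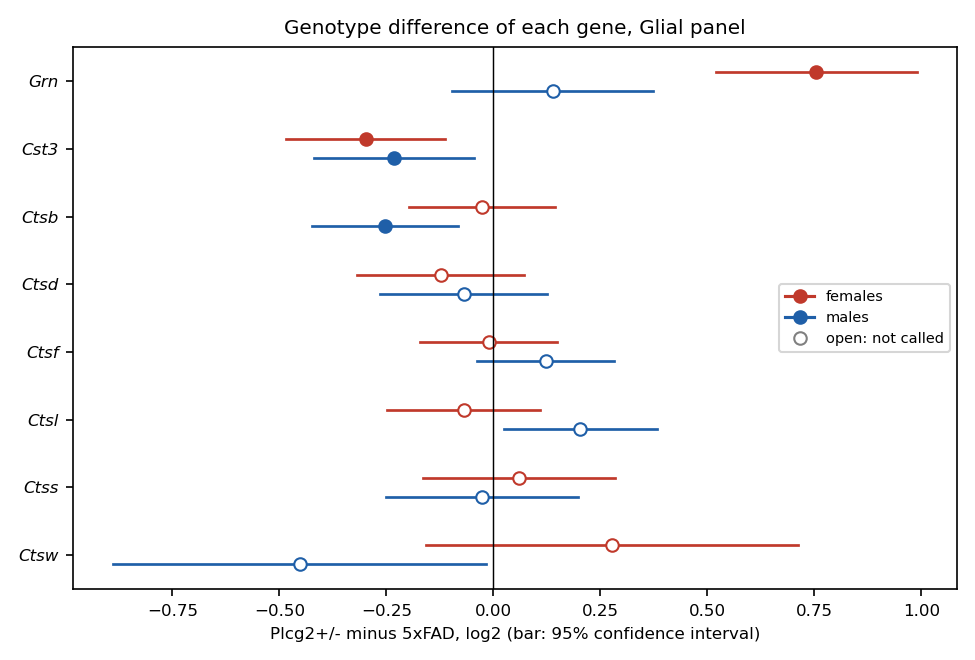
Genotype difference (x axis, Plcg2+/- minus 5xFAD, log2) of each of the 8 genes (y axis) on the Glial panel, with its 95% confidence interval, in females (red) and males (blue). Filled points passed an adjusted p of 0.05: Grn (0.75) and Cst3 (-0.30) in females, and Cst3 (-0.23) and Ctsb (-0.25) in males.

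Among the cysteine cathepsins, Ctsb encodes cathepsin B, an abundant lysosomal protease with both endopeptidase and carboxypeptidase activity. In Plcg2+/- males Ctsb had a lowest of 11.98, a median of 12.12 and a highest of 12.35, against 12.32, 12.35 and 12.53 in 5xFAD males. Of the 6 Plcg2+/- males 5 lay below every 5xFAD male, and male 3, the highest, lay within their range. In Plcg2+/- females the values were 11.96, 12.01 and 12.34, against 11.71, 12.14 and 12.27 in 5xFAD females, with the groups overlapping almost fully. Female 12 was the highest Plcg2+/- female, and mouse 1180 was the lowest 5xFAD female.

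Ctsb fell by 0.25 ± 0.082 in males (0.84-fold, adjusted p = 0.0182), and differed by -0.026 ± 0.082 in females (adjusted p = 0.81, 95% confidence interval -0.20 to 0.14). The test between the sexes did not pass (0.23 ± 0.12, adjusted p = 0.167). Over both sexes Ctsb fell by 0.14 ± 0.058 (adjusted p = 0.0416, 11 of 12 mice). This call over both sexes was close to the threshold. It was lost with quantile normalization (-0.11, adjusted p = 0.12), with no sex term (adjusted p = 0.139) and without any 1 of 14 mice (adjusted p up to 0.0765). These were Plcg2+/- females 14, 18, 19 and 51, 5xFAD females 1189, 1248, 1249 and 1253, Plcg2+/- males 10, 11, 13 and 48, and 5xFAD males 1177 and 1268. The male call was kept in all settings tried, with a highest adjusted p of 0.0495 when 1 mouse was left out.

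Ctsl encodes cathepsin L, another lysosomal cysteine protease. In Plcg2+/- males its lowest, median and highest values were 9.16, 9.36 and 9.55, against 8.98, 9.11 and 9.38 in 5xFAD males, so that 3 of 6 Plcg2+/- males lay above every 5xFAD male. In Plcg2+/- females they were 9.12, 9.36 and 9.51, against 9.21, 9.40 and 9.55 in 5xFAD females. The genotype difference was 0.20 ± 0.086 in males (adjusted p = 0.0622) and -0.069 ± 0.086 in females (adjusted p = 0.513), and over both sexes it was 0.067 ± 0.061 (adjusted p = 0.359). In males it did pass with median centring (0.24, adjusted p = 0.0178), quantile normalization, array weights, voom on recovered counts, without Plcg2+/- male 3 and without 5xFAD male 1177. The difference between the sexes was -0.27 ± 0.12 (adjusted p = 0.11) and passed with median centring (-0.37, adjusted p = 0.0163), quantile normalization, array weights and voom. The call for Ctsl in males thus changed with the scaling, with array weights and with single mice.

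Ctss encodes cathepsin S, which in brain is made mainly by microglia and trims the invariant chain of class II molecules in antigen presentation. Its lowest, median and highest values were 11.60, 11.70 and 11.85 in Plcg2+/- females, against 11.46, 11.66 and 11.94 in 5xFAD females. Plcg2+/- males had 11.12, 11.31 and 11.82, against 11.11, 11.36 and 11.69 in 5xFAD males. The genotypes overlapped in both sexes, and male 3 was the highest of the males. The difference was 0.017 ± 0.077 (adjusted p = 0.862), with a 95% confidence interval of -0.14 to 0.18, so a change of more than 0.18 in either direction lies outside that interval. Leaving out a single mouse moved it between -0.030 and 0.048.

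Ctsf encodes cathepsin F, whose loss in people causes a storage disease of neurons. It had 9.91, 10.02 and 10.06 as lowest, median and highest in Plcg2+/- females, against 9.95, 10.00 and 10.13 in 5xFAD females. Plcg2+/- males had 10.01, 10.28 and 10.47, against 9.86, 10.17 and 10.39 in 5xFAD males. The male groups were more spread, with SDs of 0.17 in Plcg2+/- males and 0.18 in 5xFAD males, than the female groups, with 0.064 in Plcg2+/- and 0.063 in 5xFAD. The difference was 0.056 ± 0.055 over both sexes (adjusted p = 0.397), -0.011 ± 0.077 in females and 0.12 ± 0.077 in males (adjusted p = 0.204). Without Plcg2+/- male 3, the lowest Plcg2+/- male, the male difference was 0.18 and passed (adjusted p = 0.0453), as it did with array weights and quantile normalization.

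Ctsw encodes cathepsin W, a member of the family found in cytotoxic T cells and natural killer cells. It was the 1 dim gene of the 8, with 5 to 19 recovered counts per mouse and a geometric mean of 9.75 normalized counts. Its lowest, median and highest values were 2.74, 3.39 and 3.82 in Plcg2+/- females, against 2.63, 3.12 and 3.57 in 5xFAD females. Plcg2+/- males had 2.75, 3.10 and 3.64, against 2.83, 3.59 and 4.02 in 5xFAD males. The groups overlapped in both sexes, at a depth where counting error alone is large.

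For Ctsw the difference was 0.28 ± 0.21 in females (adjusted p = 0.268), -0.45 ± 0.21 in males (adjusted p = 0.085) and -0.088 ± 0.15 over both (adjusted p = 0.629). In males it passed without Plcg2+/- male 11 (adjusted p = 0.0486) or 5xFAD male 1181 (adjusted p = 0.0236). With quantile normalization it passed over both sexes (-0.66) and in males (-0.90). The difference between the sexes was 0.73 ± 0.30 (adjusted p = 0.0774) and passed without Plcg2+/- female 18, 5xFAD female 1248 or 5xFAD male 1181. Of 16 other T and natural killer cell genes, 15 of them dim, 11 were higher in Plcg2+/- mice and 0 lower over both sexes, with a median difference of 0.87, where 33.8% of all genes were higher and 26.7% lower. Their summed level was 318 to 354 normalized counts in Plcg2+/- females and 227 to 306 in 5xFAD females. In males it was 382 to 554 in Plcg2+/- mice and 317 to 405 in 5xFAD mice. The whole panel had 256 genes higher and 202 lower of 757. With dim genes left out it had 220 higher and 203 lower of 692. Dim genes as a group were thus more often higher than lower. Of 5 neutrophil and mast cell genes, all dim, 3 were higher and 0 lower.

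Ctsd encodes cathepsin D, the main aspartic protease of lysosomes, which cystatin C does not inhibit. Its lowest, median and highest values were 13.96, 14.19 and 14.34 in Plcg2+/- females, against 14.14, 14.29 and 14.50 in 5xFAD females. In Plcg2+/- males they were 13.66, 13.83 and 14.13, against 13.78, 13.89 and 14.21 in 5xFAD males. The genotypes overlapped in both sexes. The difference was -0.096 ± 0.066 (adjusted p = 0.218, 95% confidence interval -0.23 to 0.041), and it did not pass in either sex or in any setting tried. A further aspartic cathepsin, Ctse, is on the Neuropathology panel and not on the Glial panel. It was dim there, with 4 to 42 recovered counts. Ctse rose by 0.77 ± 0.18 over both sexes (adjusted p = 0.000961), with all 12 Plcg2+/- mice above the 5xFAD mean of their sex. On that panel 71.6% of all genes passed, 35.5% higher and 36.1% lower. Ctse was brought in after its values were seen.

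Females and males were compared over both genotypes, and the result depends on how mice are scaled. As deposited, 81.2% of all genes passed, nearly all lower in females, with a median of -0.27 (female minus male). The median log2 value of a mouse ran from 9.14 to 9.30 in females and from 9.40 to 9.51 in males. Of the 8 genes, 4 passed as deposited. Ctsd was higher in females by 0.31 ± 0.066 (adjusted p = 0.000243) and Ctss by 0.32 ± 0.077 (adjusted p = 0.000675), while Ctsb (-0.19 ± 0.058) and Ctsf (-0.21 ± 0.055) were lower.

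Relative to the median of all genes, Ctsd stood 0.58 and Ctss 0.59 higher in females. Both kept their direction and their call with median centring, quantile normalization and voom on recovered counts, at 0.53, 0.58 and 0.55 for Ctsd and 0.54, 0.55 and 0.57 for Ctss. Ctsl differed by 0.11 ± 0.061 as deposited and did not pass (adjusted p = 0.107), but passed under the same 3 scalings, at 0.33, 0.32 and 0.35. Ctsb and Ctsf changed sign under all 3, with values of 0.0088 to 0.069 that did not pass. Grn, Cst3 and Ctsw also changed sign, and of these Ctsw passed with quantile normalization (0.42, adjusted p = 0.0317), while Grn and Cst3 passed neither as deposited nor under those scalings.

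Over all 757 genes, 38 were higher and 577 lower in females as deposited, and 106 and 209 with median centring. Of 10 genes of plaque-associated microglia, 7 were higher and 1 lower in females as deposited, with a median of 0.46. Of the 13 microglia markers 7 were higher and 1 lower. The markers were counted as deposited only. These markers thus move with Ctsd and Ctss between the sexes, and their part in that difference was not tested.

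**Figure D4:**
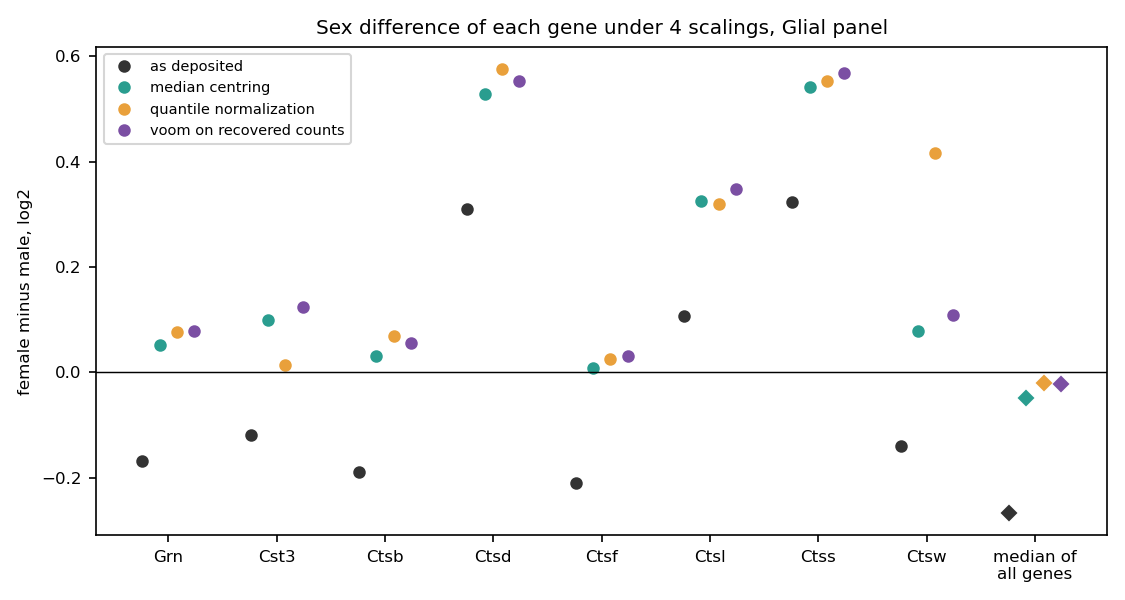
Female minus male difference over both genotypes (y axis, log2) of each of the 8 genes (x axis) on the Glial panel as deposited and under 3 other scalings, with the median of all 757 genes as diamonds at the right. Ctsd and Ctss lie above 0 under all 4, Ctsl passes under the 3 other scalings only, and Grn, Cst3, Ctsb, Ctsf and Ctsw change from below to above 0.

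The 8 genes also varied together from mouse to mouse. Over the 24 mice, with the mean of each group removed, Pearson's r was between -0.14 and 0.79 for the 28 pairs, with a median of 0.42. Over all pairs of genes of the panel the median was 0.079. All genes of a mouse share its depth and scaling factor, so these values are descriptions. The highest were Grn with Ctsb (0.79), Ctsd with Ctss (0.68), Grn with Ctsd (0.65) and Ctsf with Ctsl (0.64). Mouse 1180 lay well below the rest of its group for both Grn (8.82) and Ctsb (11.71), and no r was computed without it. Ctsf and Ctss (-0.11) and Ctsb and Ctsl (0.084) did not move together. Grn and Cst3 had an r of 0.58 within groups although they differed in opposite directions between the genotypes on this panel.

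**Figure D5:**
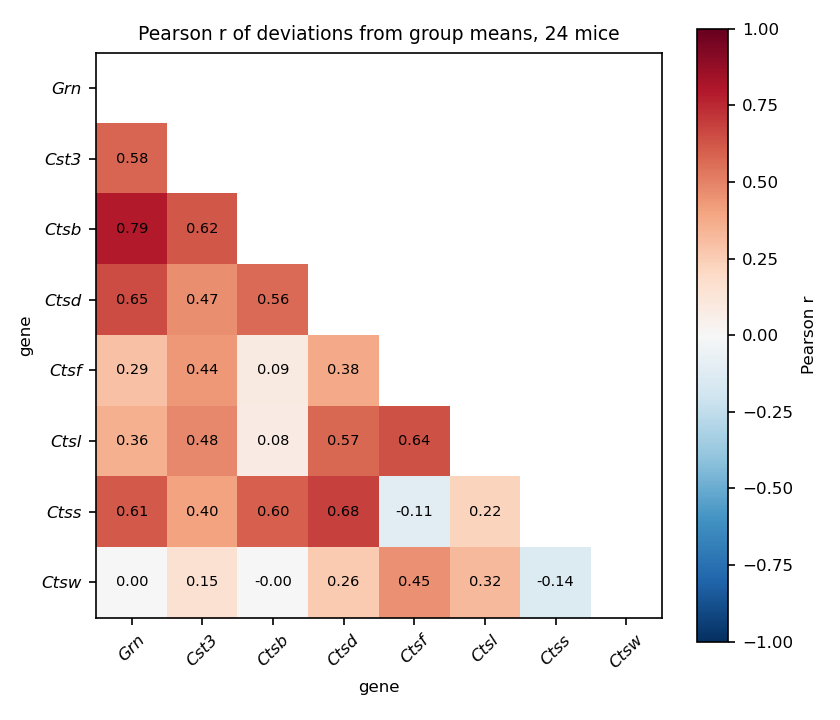
Pearson's r (colour and number) between each pair of the 8 genes (both axes) over 24 mice, of log2 values less the mean of the mouse's group. Grn, Ctsb, Ctsd and Ctss form a block with values from 0.56 to 0.79, Ctsf and Ctsl pair at 0.64, and the dim gene Ctsw is near 0 with Grn and Ctsb.

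The 3 other panel genes most like each gene by this measure are given as a description, with 1 gene left out for Ctsl. For Ctsd they were Cd68 (0.90), a lysosomal membrane protein of phagocytes, the tetraspanin gene Cd9 (0.89) and the cystatin-like gene Cst7 (0.85). For Ctss they were the complement genes C1qc (0.85) and C1qa (0.83), with Cd9 (0.84) between them. Over both sexes Cd9 fell by 0.58 ± 0.062, C1qc by 0.39 ± 0.093 and C1qa by 0.38 ± 0.10. Cd68 differed by -0.10 ± 0.088 and Cst7 by -0.097 ± 0.10, values close to the -0.096 of Ctsd, and like Ctsd and Ctss they did not pass. The differences between these genes and Ctsd or Ctss were not tested.

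For Ctsb the most similar genes were Apoe (0.92), the main lipid carrier of brain, Lamp1 (0.91), a lysosomal membrane glycoprotein, and Ap2m1 (0.87), of the endocytic adaptor AP-2. In males, where Ctsb fell by 0.25, Apoe fell by 0.49 ± 0.14 (adjusted p = 0.00765) and Lamp1 by 0.25 ± 0.069 (adjusted p = 0.00712). In females Apoe differed by -0.015 and Lamp1 by -0.097, and neither passed. For Ctsl the genes were Lgmn (0.89), the lysosomal protease legumain that processes cathepsins, and the receptor gene Axl (0.86).

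For Grn the genes were Igfbp5 (0.82), encoding a binding protein of insulin-like growth factors, Lamp1 (0.82) and Trem2 (0.80), the microglial lipid receptor. Lamp1, which fell by 0.17 ± 0.049 over both sexes, and Grn, which rose, again moved apart between the genotypes on the Glial panel. On the Neuropathology panel both fell, Lamp1 by 0.67 (adjusted p = 0.000111) and Grn by 0.38. For Cst3 the genes were Cldn5 (0.83), of the endothelial tight junction, Sox10 (0.75), a factor of oligodendrocytes, and Lamp1 (0.73). For Ctsf they were the neuronal receptor subunit gene Gabrd (0.84), the kinase gene Ptk2b (0.83) and Lgmn (0.82).

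Other genes of the lysosome were taken from lists drawn up by function. Of 9 other lysosomal enzymes and membrane proteins, 0 rose and 4 fell over both sexes, with a median of -0.10. Over the whole panel 60.5% passed, 33.8% higher and 26.7% lower. The share of these 9 that passed was below that of all genes, while the share that fell was above it. With only 9 genes these shares are rough. The 4 were Ppt1, the palmitoyl-protein thioesterase, by 0.29 ± 0.037 (adjusted p = 1.09e-06), Lamp1, Gla, the alpha-galactosidase, by 0.14 ± 0.053 (adjusted p = 0.0221), and Lamp2 by 0.11 ± 0.032 (adjusted p = 0.00609). Ppt1 fell on the Neuropathology panel too, by 0.63 (adjusted p = 1.89e-06). The other 5, among them Cd68, Gpnmb, Lgmn and Galc, did not pass.

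Of 9 subunit genes of the proton pump, which acidifies lysosomes so that cathepsins can act, 1 rose and 7 fell, with a median of -0.22, against 33.8% higher and 26.7% lower over all genes of the panel. Atp6v1h fell by 0.54 ± 0.072, Atp6v1e1 by 0.52 ± 0.060, Atp6v1g2 by 0.27 ± 0.038 and Atp6v1d by 0.22 ± 0.031, each in all 12 Plcg2+/- mice. These 4 also fell on the Neuropathology panel, by 0.24 to 0.70 with a largest adjusted p of 0.00833. Grn, by contrast, differed in direction between the panels.

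Of 6 other protease inhibitors, 1 rose and 1 fell, against 33.8% higher and 26.7% lower over all genes of the panel. Serpina3n, a secreted inhibitor of serine proteases, rose by 0.47 ± 0.12 (adjusted p = 0.00138), and Serpine2, an inhibitor of thrombin and related proteases, fell by 0.44 ± 0.065 (adjusted p = 6.8e-06). Timp2, an inhibitor of metalloproteases, did not pass (-0.067 ± 0.037), nor did Slpi, an inhibitor of leukocyte elastase that binds progranulin and protects it from cleavage (0.57 ± 0.25, adjusted p = 0.0561, a dim gene). Among progranulin partners only Slpi and Tardbp were measured. Tardbp, which encodes the protein that aggregates in progranulin deficiency, fell by 0.25 ± 0.037 (adjusted p = 7.05e-06). Of 4 genes of antigen processing, Cd40 rose by 0.38 ± 0.12 (adjusted p = 0.00875), while Cd74, the invariant chain that cathepsin S cuts, differed by 0.065 ± 0.20, Lgmn by 0.018 ± 0.052 and Tap1 by 0.016 ± 0.10.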

How the data were processed

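RNA of mouse cortex was measured on 2 nCounter panels in the same 24 mice, 48 samples in all. The deposited values are log2 normalized counts, with no column left unmapped. The normalization settings are not given in the sources used here. Per the labels, total RNA was prepared with a Purelink RNA Mini Kit and run by the standard NanoString protocol. Counts were recovered by dividing each sample's linear values by a single factor, after which 100% of those under 3000 counts lay within 0.05 of an integer.

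Genotype, sex and animal number came from titles. The log2 values of every gene entered a fit of 4 groups in limma 3.58.1 in R 4.3.3 (two-sided, Benjamini-Hochberg over the panel, threshold 0.05). P-values set differences between groups against the spread between mice of a group, and do not cover differences between cohorts or assay runs. Genes with a geometric mean under 20 normalized counts, 65 on the Glial panel, are called dim, and none was removed. All 8 genes matched the GRCm38.p6 annotation. Their choice, the lists and the tests were made with earlier results of these data known. Named genes are the 8, up to 4 of smallest p per context list, and the 3 most similar genes of each non-dim member. Ctse was named after its values were seen, and so were Plcg2+/- female 12 and male 3, known to stand apart from the earlier results. The fits were tested on simulated data. Animal numbers link the panels, and no number is shared between genotypes. One gene that this rule names is not reported here. Alternatives are given in the closing section.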

Additional observations from a re-analysis of the deposited data

Results flagged for a closer look

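In 5xFAD females mouse 1180 stood below the other 5 of its group for Grn (8.82) and for Ctsb (11.71) on the Glial panel. Plcg2+/- female 12 stood above its group for Ctsb (12.34) on the Glial panel and for Grn (10.54) on the Neuropathology panel. Plcg2+/- male 3 stood above its group for Ctss (11.82) on the Glial panel and for Grn (10.76) on the Neuropathology panel. In each case the gap to the nearest mouse, as a share of the range of the group, was above Dixon's 95% critical value of 0.625 for 6 samples, which chance exceeds in about 1 in 20 groups. The genotype difference of Grn on the Glial panel differed between females and males by 0.62 in a direct test (adjusted p = 0.00818, limma), with all 6 Plcg2+/- females above every 5xFAD female and 3 of 6 Plcg2+/- males above every 5xFAD male. How many of all genes separated the female groups this fully was not counted.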

How the results depend on the processing

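The number of the 8 genes that passed over both sexes was 2 or 3 in every setting (with quantile normalization Ctsw passed, at -0.66, and Ctsb did not), and those in females at 2 except with quantile normalization (1). In males it was 2 as reported, 5 with quantile normalization, 4 with array weights and 1 to 4 when 1 mouse was left out. It was 1 without any 1 of Plcg2+/- males 13, 46 and 48 or 5xFAD males 1182, 1268 and 1269, and 4 without Plcg2+/- male 3. For the difference between the sexes it was 1 as reported, 2 with median centring, quantile normalization, array weights or voom on recovered counts, and 1 to 2 when 1 mouse was left out. For females against males it was 4 as reported, 3 with median centring or voom, and 4 to 6 with 1 mouse left out. Here the sign turned for Ctsb with median centring (0.030), quantile normalization (0.069) and voom (0.055), for Ctsf likewise (0.0088, 0.025 and 0.030), and for Ctsw (0.079 with median centring, 0.42 with quantile normalization and 0.11 with voom, against -0.14 as reported). Grn, at -0.17 as reported, passed that test with eBayes trend and robust settings and without any 1 of 6 mice (Plcg2+/- males 10 and 48, 5xFAD females 1189 and 1248, 5xFAD males 1182 and 1269), and Cst3 passed it without 5xFAD female 1248 or 1249 or male 1270, and Ctsl without male 1177. On the Neuropathology panel the fall of Grn over both sexes was -0.21 with quantile normalization (adjusted p = 0.0941) and -0.47 to -0.34 with 1 mouse left out. The Glial minus Neuropathology difference of Grn ran from 0.78 to 0.90 with 1 mouse left out. The cause of these changes was not tested.

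Over all Glial genes, 615 passed for sex as deposited (38 higher, 577 lower in females), 315 with median centring (106 and 209), 293 with quantile normalization (134 and 159) and 320 with voom (141 and 179). For genotype, median centring changed the split in females to 221 higher and 205 lower (261 and 154 as deposited) and in males to 185 and 149 (130 and 178 as deposited). The difference between the sexes was called for 166 genes, and for 256 with array weights. On the Neuropathology panel it was called for 145, for 90 with quantile normalization and for 311 without female 12 and male 3. For the Neuropathology panel, voom and leaving out mice were added after the data were seen, as was the comparison between panels. No paired analysis was possible because the genotypes share no animal number. Low counts limit Ctsw and Ctse.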
